A study of Mus musculus with 4 samples.

Results

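Genes of the actin cytoskeleton were followed in ribosome profiling libraries of mouse embryonic fibroblasts. The set comprised every row of the deposited table whose symbol matched a fixed name pattern for actins, actin-related proteins, myosins, tropomyosins, filamins, calponins, transgelins, caldesmon, vinculin, zyxin, talins, gelsolin, cofilins, profilins, ARP2/3 subunits, cyclase-associated and capping proteins, diaphanous formins, PDZ-LIM proteins, moesin and ezrin. It held 54 of the 4878 listed genes, 1.11% of the table. The pattern used names only, but it was chosen with earlier results of these data known. Ribosome profiling sequences the mRNA fragments that ribosomes protect from RNase, called footprints. The table gave them as a normalized read number per gene, separately for the 5' untranslated region, called the leader here, and for the coding sequence.

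Cells at passages 5 to 8 received either a negative control siRNA or an siRNA named Si-eIF1A (X+18) by lipid transfection, with 2 libraries in each group. eIF1A is an initiation factor of the small ribosomal subunit that takes part in scanning and in the choice of the start codon. All groups shared the cell type, the growth conditions and the transfection, and neither the strain nor the number of embryos was stated in the labels. The genes of eIF1A itself were not analysed here, so the depth of the knockdown could not be checked. Nothing in the labels ties replicates to separate cultures, and the p-values cover only library-to-library spread, which may be technical. For leader reads, and for leader against coding reads, that spread was taken from a trend over all genes and not from the gene itself.

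Actin monomers assemble into filaments that give a fibroblast its shape, its stress fibres and its grip on the matrix. Nucleators start filaments, profilin and cofilin feed and sever them, tropomyosins and calponins cover them, filamins and alpha-actinins tie them together, myosin II pulls on them, and talin and vinculin couple them to integrins. Many of these genes are transcribed under serum response factor (SRF), whose coactivators are held back by free actin monomers.

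Summed over the table, whole reads came to 617663 and 547916 for the controls, and to 458191 and 280649 for the first and the second knockdown library. Leader reads were 13.1 and 15.9 per 100 coding reads in the controls and 24.9 and 48.0 in knockdown replicates 1 and 2, over all listed genes. Knockdown replicate 2 thus had the fewest coding reads and the largest leader share. Of the 12 fibroblast markers checked, 3 were in the table, all with coding reads in every library. Of these, S100a4 fell from 149.8 and 135 normalized coding reads in the controls to 18.3 and 17.6 in the knockdown libraries, Fbln2 fell from 444 and 601 to 192 and 196, and Vim did not pass (671 and 488 against 1227 and 455). The part of such marker changes in the results that follow was not tested. Of markers for muscle, epithelium, endothelium and leukocytes, only Smtn and Dsp were in the table, and the muscle actins and myosins checked were not.

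SRF binds the CArG box, a 10-base element of C, A or T, and G that was first described in actin promoters, and promoter windows of 250 bases before and 50 after the annotated start were searched for it by name on GRCm38.p6 (RefSeq; the pattern reads the same on both strands). Windows were found for 48 of the 54 genes, and 6 of these (12.5%) held a box, against 1.81% of all 27025 genes in the table of promoters and 1.70% of the listed genes matched to it. The boxes are shown with up to 10 flanking bases, on the gene's strand from 5' to 3', with the box in capitals. They are the exact matches inside these windows, shown whatever the footprints of their genes did. Looser or more distant boxes, and genes without a window, were not searched, so other members may also hold the element.
Actg1, chr11:120348566-120348595, minus strand: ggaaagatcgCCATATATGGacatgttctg
Myl6, chr10:128493040-128493069, minus strand: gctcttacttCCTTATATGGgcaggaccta
Cnn2, chr10:79988534-79988563, plus strand: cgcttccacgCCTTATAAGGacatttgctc
Vcl, chr14:20929161-20929190, plus strand: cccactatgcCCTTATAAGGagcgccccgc
Myo1e, chr9:70207308-70207337, plus strand: gctgaattctCCATTTATGGacagattgcc
Arpc4, chr6:113377863-113377882, plus strand: CCTAATTTGGtgcccaacct
The coding reads of these 6 genes did not move one way. Myo1e and Vcl fell, and Actg1, Myl6, Arpc4 and Cnn2 did not pass, with log2 changes of 0.53, 0.46, 0.76 and -0.45. A match is a description of letters and not a site of binding.

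The first comparison asked which of these mRNAs gained or lost footprints on the coding sequence when eIF1A was lowered. Coding footprints of gelsolin, of most unconventional myosins, of filamin A, and of caldesmon, calponin 3, vinculin and myosin heavy chain 10 fell in the knockdown libraries. None of the actins, ARP2/3 subunits or myosin light chains passed the test in either direction. The test was limma on log2(normalized reads + 1) across all genes with a mean of at least 10, and a gene counted as changed at a Benjamini-Hochberg adjusted p under 0.05. Of the 52 genes tested, 14 fell and 0 rose by limma (19 had an unadjusted p under 0.05), against 18.7% lower and 10.6% higher among all 4619 genes tested. Their median log2 change was -0.10, beside -0.16 for all genes tested. In 20 of the 52 genes the knockdown values both lay under the controls and in 11 both lay over them, against 40.1% and 26.0% of all genes tested. The edgeR count test on recovered whole reads called 10 members lower and 4 higher (17.6% and 19.5% of all genes). The 4 were Arpc4, Arpc5, Arpc5l and Pfn1. The same 4 were higher by limma with TMM scaling factors, which edgeR also applied (17.0% of all genes). Footprints count both how much of an mRNA is present and how much it is translated, and in such bulk samples fewer cells of a type and less RNA per cell cannot be told apart.

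**Figure D1:**
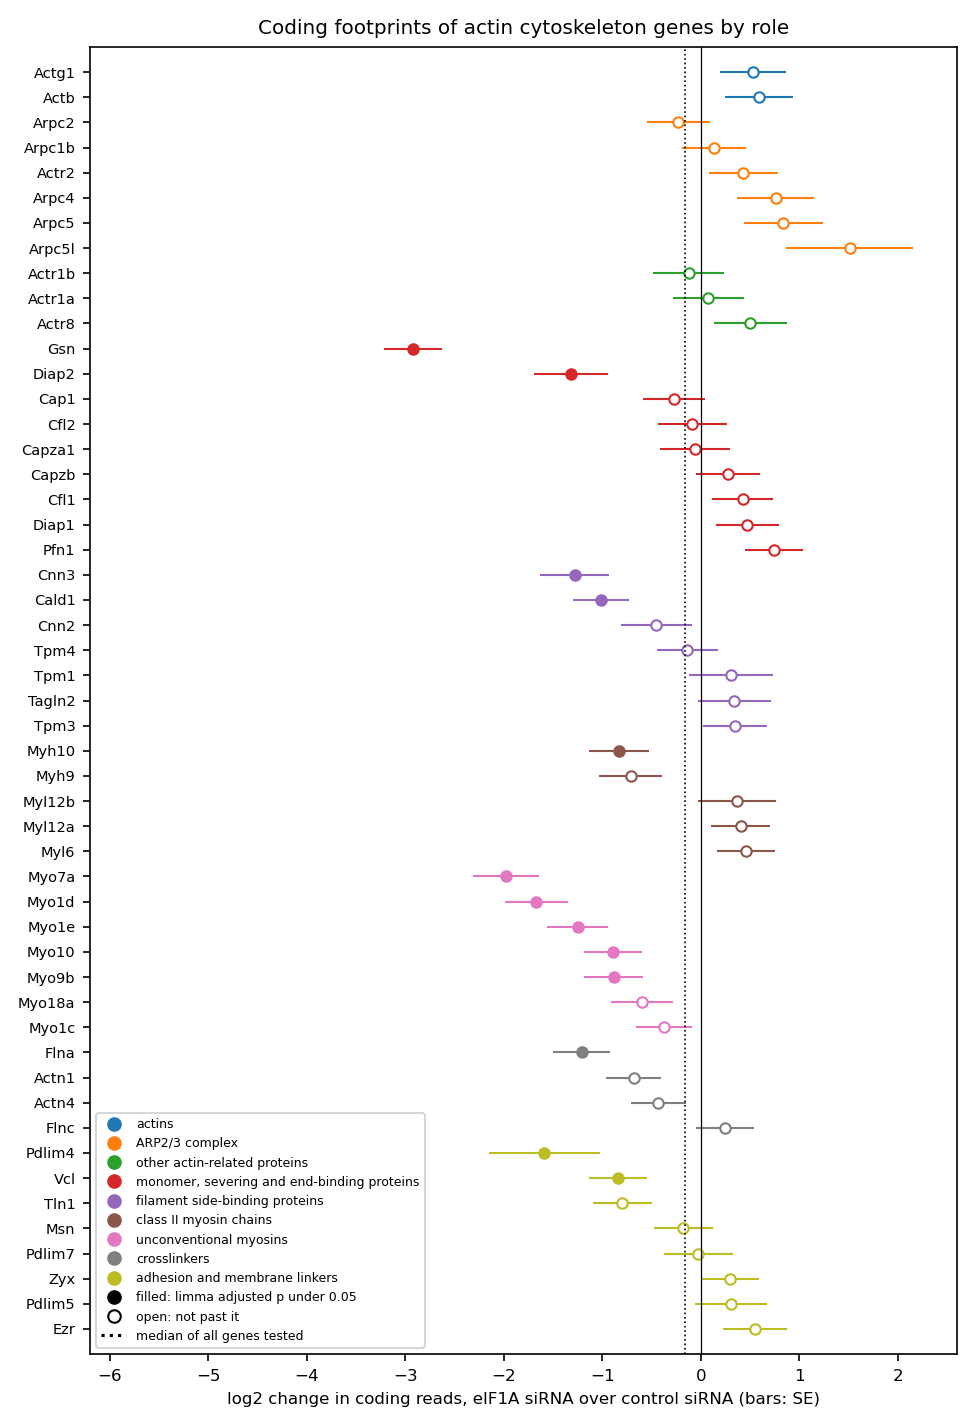
Log2 change (eIF1A siRNA over control siRNA, 2 libraries each) of 51 of the 52 tested genes in coding reads, coloured by role, with bars for the standard error; filled circles passed the limma threshold, and the dotted line is the median of all genes tested at -0.16. Gsn lies lowest at -2.92, all 7 tested unconventional myosins lie below 0, and both actins lie above 0 without passing.

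The calls rested on few libraries. Without control replicate 2 only Gsn passed, against 0.173% lower and 0.0649% higher over all genes (its log2 change ranged from -3.19 to -2.57 over all alternatives), and without control replicate 1 there were 6 lower members, Flna, Gsn, Myh10, Myh9, Myo7a and Tln1, against 4.26% lower and 2.10% higher over all genes. Without knockdown replicate 1 there were 13 lower (25.3% of all genes, with 9.22% higher), and without knockdown replicate 2 there were 11 lower and 8 higher (18.5% and 19.0% of all genes), the latter being Actg1, Arpc4, Arpc5, Arpc5l, Ezr, Pfn1, Tagln2 and Tpm1. No called member changed sign in any of these fits.

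Neither cytoplasmic actin, the building block of the filaments, passed in coding reads. Actb (beta-actin, chromosome 5, 142903115 to 142907976, mm10) had 1166.5 and 1287 normalized coding reads in the controls and 2558 and 1328 in the knockdown libraries. The groups did not overlap, but knockdown replicate 2 lay only just above the higher control, and the log2 change of 0.59 ± 0.34 (SE) did not pass (limma adjusted p = 0.208). Actg1 (gamma-actin, chromosome 11, 120345687 to 120348495) had 396 and 404 in the controls and 835 and 402 in the knockdown libraries. Here the groups overlapped, since knockdown replicate 2 lay between the controls, and the log2 change was 0.53 ± 0.34 (limma adjusted p = 0.244). The coding sequences of these genes are close copies, and the sources used here do not say how reads with several matches were assigned, so the split between them is uncertain.

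The ARP2/3 complex, which starts branches on existing filaments, had 6 tested subunits of 7, and none passed. Arpc4, Arpc5 and Arpc5l lay above both controls in both knockdown libraries, with log2 changes of 0.76, 0.84 and 1.51 (limma adjusted p = 0.156, 0.128 and 0.0887). Arpc5l was measured thinly and passed the filter only through the knockdown libraries, with 20 and 3 reads in the controls and 25 and 10 in the knockdown libraries. Arpc2 and Arpc1b overlapped the controls, as did Actr2, which encodes the Arp2 subunit. Arpc1a stayed below the filter, with 17 and 14 coding reads in the controls and 5 and 2 in the knockdown libraries. Of the actin-related proteins outside this complex, Actr1a and Actr1b of dynactin and Actr8 of a chromatin remodelling complex did not pass either.

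Gelsolin, which severs filaments and caps their ends in a calcium-dependent way, had the largest fall of the set. Gsn (chromosome 2, 35256359 to 35307902) had 950.1 and 878 normalized coding reads in the controls and 145 and 99.0 in the knockdown libraries. All 4 libraries were well measured, with 62 reads or more, and the groups lay far apart. Gsn fell 7.48-fold, from 914 ± 50.9 to 122 ± 32.9 (SD, n = 2), which is -2.92 ± 0.29 as log2 (SE; limma adjusted p = 1.32e-05), and it passed in all 14 alternative settings.

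The other proteins that act on monomers and filament ends went separate ways. The formin genes listed as Diap1 and Diap2, older names of Diaph1 and Diaph2, encode nucleators of unbranched filaments. Diap2 had 35.8 and 56.2 normalized coding reads in the controls and 17.3 and 17.6 in the knockdown libraries, and it fell by 1.32 on the log2 scale (limma adjusted p = 0.0154). Diap1 had 43.0 and 59.6 against 65.1 and 76.6, above both controls without passing (log2 0.47, limma adjusted p = 0.281). Pfn1, profilin 1, which hands monomers to growing ends, had 124 and 146 against 273 and 187 and did not pass (log2 0.74, limma adjusted p = 0.0719). It was called higher in 7 of 14 alternatives, TMM factors, edgeR and DESeq2 among them. The severing proteins Cfl1 and Cfl2, the cyclase-associated protein Cap1 and the capping subunits Capza1 and Capzb overlapped the controls, with log2 changes between -0.27 and 0.42.

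Proteins that lie along the filament split between falls and no call. Cnn3, an acidic calponin, had 163 and 139 normalized coding reads in the controls and 90.5 and 41.5 in the knockdown libraries and fell by 1.28 on the log2 scale (limma adjusted p = 0.013). Cald1, caldesmon, which holds back myosin on the filament, had 273 and 240.3 against 140.4 and 113 and fell by 1.02 (limma adjusted p = 0.0148). In both genes every knockdown library lay below every control. The tropomyosins Tpm1, Tpm3 and Tpm4, coiled coils that cover the filament, and Tagln2, transgelin 2, overlapped the controls, and their knockdown replicates disagreed. Tpm1 had 65.2 and 57.9 in the controls and 139 and 41.5 in knockdown replicates 1 and 2, one above and one below both controls. Tagln2 showed the same, at 55.9 and 46.7 against 97.6 and 43.1.

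Of the chains of myosin II, the contractile motor of stress fibres, only the heavy chain Myh10 passed. Myh10 had 550.3 and 836 normalized coding reads in the controls and 357 and 405 in the knockdown libraries and fell by 0.83 on the log2 scale (limma adjusted p = 0.0481). This call held in 5 of 14 alternatives, over which the log2 change ranged from -1.13 to -0.47. Myh9, the other heavy chain tested, had 1848 and 2634 against 1271 and 1425, below both controls without passing (log2 -0.71, limma adjusted p = 0.102). The light chains Myl6, Myl12a and Myl12b lay above both controls in both knockdown libraries, none past the threshold, with log2 changes of 0.46, 0.40 and 0.37. Myl12a and Myl12b are close copies, and reads shared between them or with processed pseudogenes could be split in an unknown way, in coding and leader values alike. Over all genes tested, 26.0% lay above both controls and 40.1% below both. Myl12b was measured thinly, at 19.3 and 19.9 normalized coding reads in the controls and 31.5 and 20.75 in the knockdown libraries. Its knockdown replicate 2 held 13 reads and lay only just above the higher control. Whether heavy and light chains differed from each other was not tested.

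Unconventional myosins, single motors that work at membranes and in cell protrusions, lay lower throughout. In all 7 tested genes both knockdown libraries were below both controls, and 5 fell, against 40.1% and 18.7% of all genes tested. Myo7a, a motor best known from sensory hair cells, had 70.2 and 89.9 normalized coding reads in the controls and 21.4 and 17.6 in the knockdown libraries. It fell by 1.98 ± 0.34 on the log2 scale (SE, limma adjusted p = 0.000642) and passed in 12 of 13 alternatives. Myo1d, a class I motor that binds membranes, had 90.3 and 87.3 against 24.4 and 30.3, or -1.67 ± 0.32 as log2 (limma adjusted p = 0.00151). Myo1e, a class I motor of endocytic and junctional sites, had 93.9 and 107 against 38.6 and 44.7 and fell by 1.25 (limma adjusted p = 0.00695).

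Myo10, the motor of filopodia, and Myo9b, another unconventional motor, fell by less. Myo10 fell by 0.89 on the log2 scale (limma adjusted p = 0.0324) and Myo9b by 0.89 (limma adjusted p = 0.0355), calls that held in 7 and 8 of 14 alternatives. Myo18a (log2 -0.60, limma adjusted p = 0.164) and Myo1c (log2 -0.37, limma adjusted p = 0.344) did not pass. Myo1c, a close relative of Myo1d and Myo1e, had 332 and 378 in the controls and 249 and 300.1 in the knockdown libraries. Myo19, a motor on mitochondria, stayed below the filter with 11 and 7 against 16 and 4 reads.

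Crosslinkers tie filaments into bundles and networks, and here Flna and Flnc differed. Flna (chromosome X, 74223461 to 74249854) had 565 and 652 normalized coding reads in the controls and 231 and 297 in the knockdown libraries. It fell by 1.21 ± 0.29 on the log2 scale (SE, limma adjusted p = 0.00593) and passed in 13 of 14 alternatives. Flnc (chromosome 6, 29433153 to 29461889), the filamin best known from muscle, had 322 and 473 against 425 and 503, with overlapping groups and a log2 change of 0.24 ± 0.30 (limma adjusted p = 0.567). The alpha-actinins Actn1 and Actn4 lay below both controls without passing, with log2 changes of -0.68 and -0.43 (limma adjusted p = 0.0779 and 0.256).

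Among proteins that link filaments to adhesions and membranes, 2 of 8 fell, against 18.7% of all genes tested. Vcl, vinculin, which reinforces the talin link under tension, had 384 and 557 normalized coding reads in the controls and 259 and 257 in the knockdown libraries. It fell by 0.84 on the log2 scale (limma adjusted p = 0.0414), in 6 of 14 alternatives. Pdlim4, an adaptor with a PDZ and a LIM domain, fell by 1.59 (limma adjusted p = 0.044) on few reads, 37 and 16 in the controls and 5 and 4 in the knockdown libraries, and it passed the filter through the controls alone. Tln1, talin 1, which activates integrins, had 629.8 and 940.4 against 454 and 431 and lay below both controls without passing (log2 -0.80, limma adjusted p = 0.056). Zyx, a zinc-binding adaptor of focal adhesions, lay above both controls, at 76.0 and 74.3 against 93.6 and 91.0 (log2 0.29, limma adjusted p = 0.476). Pdlim5, Pdlim7, Msn and Ezr overlapped the controls, the last 2 being linkers of filaments to the plasma membrane.

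The second comparison asked the same of footprints on the leader, where reads lie on the stretch that the small subunit scans before the start codon. Leader footprints of gamma-actin, transgelin 2, tropomyosin 1 and profilin 1 rose in the knockdown libraries, and those of gelsolin fell with its coding reads. Tropomyosin 1 entered the test through its knockdown values alone. Of the 28 genes that passed the filter, 17 rose and 1 fell, against 44.0% higher and 2.81% lower (46.8% in either direction) among all 2101 genes tested. The median log2 change was 1.33 in the set and 1.09 over all genes tested, so most of the rise was shared with the table. In 22 of the 28 the knockdown values both lay over the controls and in 1 both lay under them, against 67.4% and 7.19% of all genes tested. The filter can favour a rise: 8 of the 28 had a control mean under 10 and passed through the knockdown libraries, and 7 of these rose (Tpm1, Cfl2, Capzb, Myl12b, Actn4, Zyx and Ezr, beside Arpc1b, which did not pass). Of the 20 with a control mean of at least 10, 10 rose and 1 fell. Shares over all genes split by control mean were not worked out. The counts in these 8 and 20 genes are therefore not read as results about the members.

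With TMM factors taken from the leader reads, which bring the median change of all genes to 0.03, 8 members rose and 3 fell, against 20.9% and 21.1% of all genes. Those that rose relative to other leaders were Actg1, Actn1, Cfl1, Cfl2, Pfn1, Tagln2, Tpm1 and Zyx, and those that fell were Gsn, Cnn3 and Myh10. Without control replicate 1 there were 5 higher members (Actg1, Pfn1, Tagln2, Tpm1 and Zyx), against 8.52% higher and 0.476% lower over all genes. Without control replicate 2 there were 6 (Actg1, Cfl2, Ezr, Pfn1, Tagln2 and Tpm1), against 16.1% and 0.286%. Without knockdown replicate 1 there were 22, against 64.1% and 2.33%, and without knockdown replicate 2 there were 11, against 33.5% higher and 5.38% lower over all genes. The edgeR test, which also took TMM factors from the leader reads, called 7 higher and 3 lower, against 20.3% and 20.7% over all genes. Gsn lost its call without control replicate 2, where 0 members were called lower.

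**Figure D2:**
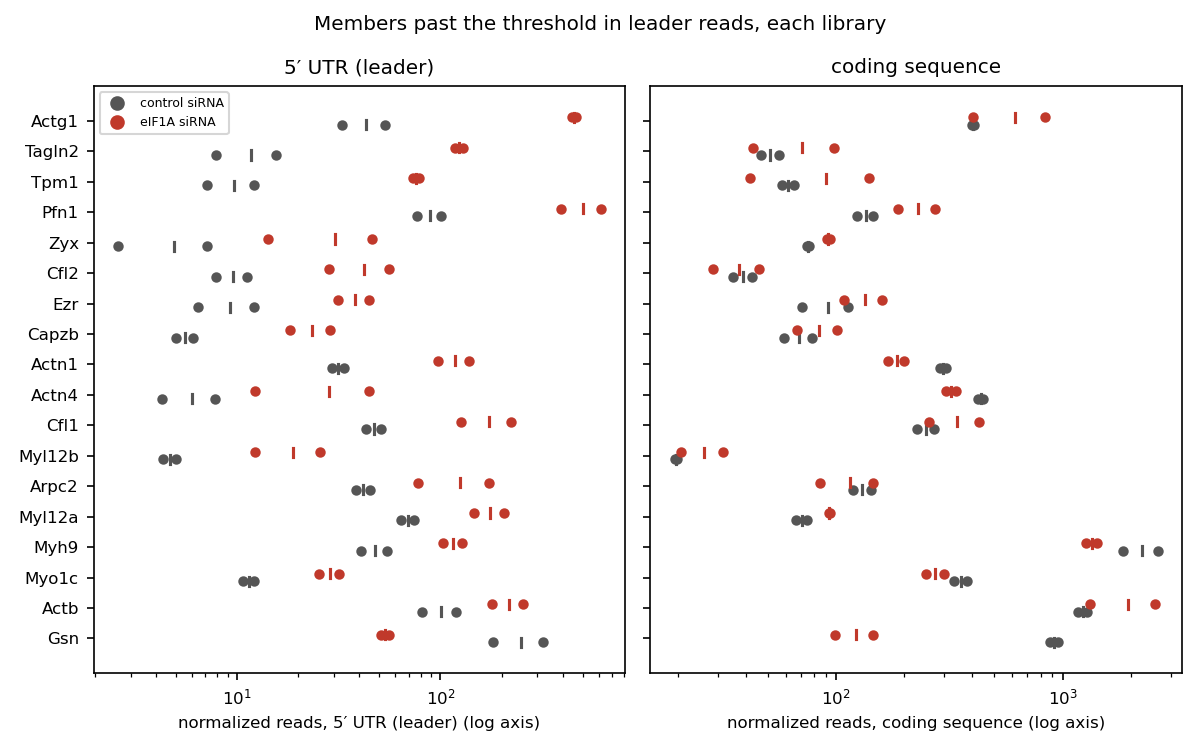
Normalized reads on the leader (left) and on the coding sequence (right), on log axes, of the 18 genes past the limma threshold in leader reads; dots are libraries and ticks are means of 2 (grey, control siRNA; red, eIF1A siRNA). Actg1 leader reads lie at 33.0 and 53.6 in the controls and at 445 and 463 in the knockdown libraries, while its coding dots overlap.

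The actins parted on the leader. Actg1 had 33.0 and 53.6 normalized leader reads in the controls, from 46 and 62 whole reads, and 445 and 463 in the knockdown libraries, from 438 and 290 whole reads. The groups lay far apart, and the rise was 10.5-fold, or 3.40 ± 0.44 as log2 (SE; limma adjusted p = 2.85e-12), past the threshold in all 14 alternatives. Actb had 81.7 and 119 in the controls and 180.0 and 254 in the knockdown libraries. It rose by 1.11 ± 0.44 (limma adjusted p = 0.028), about as much as the median leader, and with TMM factors, edgeR and DESeq2 its log2 change fell to 0 or just below, at -0.00444, -0.00233 and -0.0392.

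Transgelin 2 and tropomyosin 1, which both bind along the filament, gained leader reads on a scale near that of Actg1. Tagln2 (chromosome 1, 172500246 to 172507375) had 7.88 and 15.6 normalized leader reads in the controls and 118 and 129 in the knockdown libraries, or 3.36 ± 0.50 as log2 (SE; limma adjusted p = 1.44e-09). Tpm1 (chromosome 9, 67022590 to 67049672) had 7.17 and 12.1 against 73.2 and 78.2, or 2.89 ± 0.52 as log2 (limma adjusted p = 7.18e-07). In contrast to their coding reads, the leader values of Tagln2 and Tpm1 were close together in the knockdown replicates. Cnn3, on the same filaments, had 102 and 132 against 83.4 and 124 and overlapped the controls (log2 -0.19, limma adjusted p = 0.756). Tpm3 lay above both controls without passing (log2 1.13, limma adjusted p = 0.0575).

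Profilin and the cofilins, which drive monomer turnover, rose as well. Pfn1 (chromosome 11, 70651844 to 70656799) had 76.7 and 101 normalized leader reads in the controls and 394 and 616 in the knockdown libraries, or 2.47 ± 0.42 as log2 (SE; limma adjusted p = 2.14e-07), in all 14 alternatives. Cfl1 had 43.0 and 51.0 against 126 and 222 (log2 1.82, limma adjusted p = 0.000512), and Cfl2 had 7.88 and 11.2 against 28.5 and 55.9 (log2 1.97, limma adjusted p = 0.00125). The capping subunit Capzb rose by 1.88 (limma adjusted p = 0.00692). Gsn had 181 and 320 against 55.9 and 51.1 and fell by 2.15 ± 0.45 (limma adjusted p = 2.5e-05). It was the one member of the 28 whose leader and coding reads both fell.

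Leaders of some crosslinker, motor and linker genes rose as well. Actn1 had 29.4 and 33.7 normalized leader reads in the controls and 97.6 and 139 in the knockdown libraries (log2 1.85, limma adjusted p = 0.000613), and Actn4 had 4.30 and 7.78 against 12.2 and 44.7 (log2 1.85, limma adjusted p = 0.00717). Zyx rose by 2.31 (limma adjusted p = 0.000952) from 10 and 3 whole reads to 14 and 29, so that its size rests on few control reads. Ezr rose by 1.96 (limma adjusted p = 0.00145) and Arpc2 by 1.45 (limma adjusted p = 0.00692). Of the myosin genes, Myl12b (1.73), Myl12a (1.32), Myh9 (1.26) and Myo1c (1.25) rose, with limma adjusted p of 0.0212, 0.0105, 0.0187 and 0.0467. The calls of Myo1c, Myl12b, Actb and Actn4 were found in 4, 6, 6 and 6 of their alternatives.

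The 26 genes below the leader filter had at most 17.6 normalized leader reads, the value of Myo19 in knockdown replicate 2. In 9 of them, Actr2, Arpc5l, Actr1b, Actr8, Capza1, Diap1, Diap2, Tpm4 and Pdlim7, both controls stood at 1 read, the lowest value in the table, which may stand for 0. The knockdown libraries of these 9 reached at most 6 reads. Myo7a, whose coding reads fell, had 11 and 15 leader reads in the controls and 1 and 1 in the knockdown libraries. Of the 14 genes with lower coding reads, 8 were below the leader filter, and of the other 6 only Gsn changed in leader reads.

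**Figure D3:**
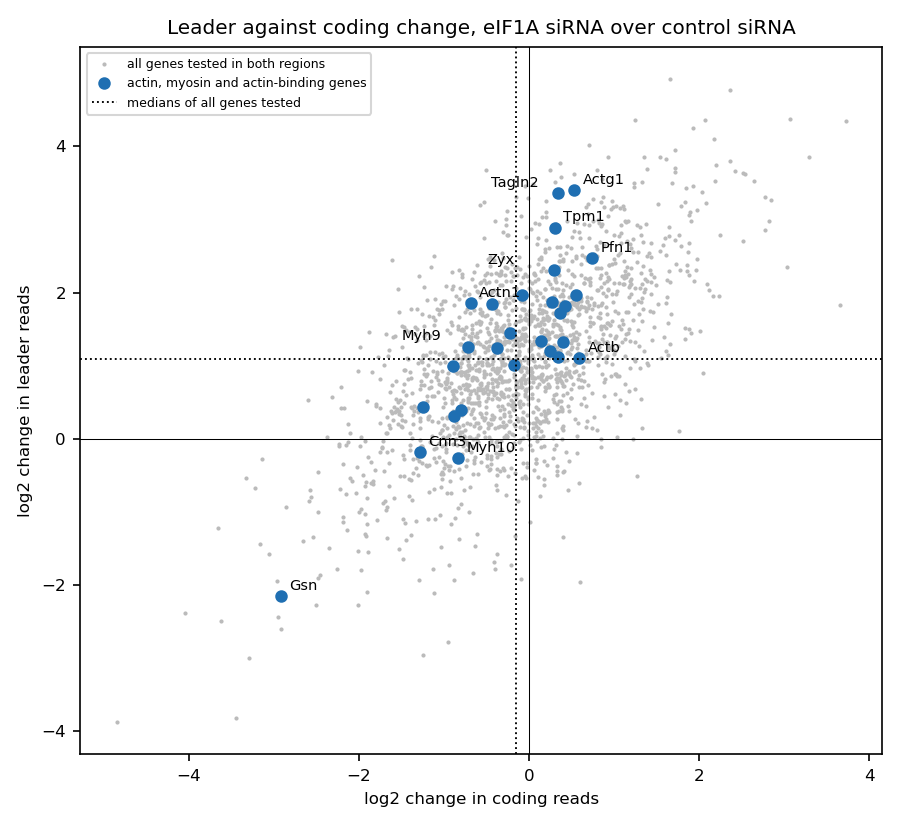
Log2 change in leader reads against that in coding reads (knockdown over control) for all genes tested in both regions (grey) and the 28 members (blue), with dotted lines at the medians of all genes tested in each region, 1.09 and -0.16. Actg1, Tagln2, Tpm1 and Pfn1 lie high on the leader axis between 0.31 and 0.74 on the coding axis, and Gsn lies at the lower left.

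The third comparison set leader reads against coding reads of the same gene, which takes out the level of the mRNA as far as it acts on both regions. The ratio rose in 7 of 28 genes and fell in 0 (14 had an unadjusted p under 0.05 by limma), against 19.4% higher and 0.0524% lower among all 1907 genes tested. The median log2 change was 1.51 in the set and 1.23 over all genes. In 24 of 28 the knockdown values both lay over the controls and in 0 both lay under them, against 64.1% and 1.52% of all genes tested. The 7 were Tagln2, Actg1, Tpm1, Actn1, Actn4, Zyx and Myh9, of which Tpm1, Actn4 and Zyx had passed the leader filter only through the knockdown libraries. Without control replicate 1 or control replicate 2 the count was 0 (0.157% and 0% of all genes). Without knockdown replicate 1 it was 22 (61.4% of all genes were higher and 0.262% lower), and without knockdown replicate 2 it was 3 (13.2% and 1.26%). With TMM factors in each region it was 0, where 0% of all genes were higher and 0.0524% lower. It was 2 by edgeR (Actg1 and Tagln2, with 2.20% higher over all genes). It was 1 by DESeq2 (Actg1), which called 67 of all 1907 genes in either direction.

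Actg1 had 8.32 and 13.2 leader reads per 100 coding reads in the controls and 53.3 and 115 in the knockdown libraries, 2.87 ± 0.78 as log2 of the ratio (SE; limma adjusted p = 0.00539). Actb had 7.002 and 9.27 against 7.04 and 19.1, with overlapping groups (log2 0.52, limma adjusted p = 0.601). Tagln2 went from 14.1 and 33.3 to 121 and 300 (log2 3.02 ± 0.80, limma adjusted p = 0.00443), and Tpm1 from 10.99 and 20.9 to 52.6 and 188 (log2 2.58, limma adjusted p = 0.0133). In Actg1, Tagln2 and Tpm1 knockdown replicate 2 had the higher ratio, as it had over all listed genes. Actn1 went from 10.2 and 11.1 to 48.7 and 82.1 (log2 2.54, limma adjusted p = 0.0136). Myh9, with a leader of few reads beside its coding sequence, went from 2.21 and 2.07 to 8.08 and 8.96 (log2 1.97, limma adjusted p = 0.0337). Actn4 and Zyx passed with log2 changes of 2.28 and 2.02 (limma adjusted p = 0.0121 and 0.0455).

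Summed over all 54 genes, summed leader reads were 8.29 and 9.86 per 100 coding reads in the controls and 20.7 and 38.7 in knockdown replicates 1 and 2. The other listed genes had 13.2 and 16.1 against 25.1 and 48.3. The set thus had fewer leader reads per coding read than the rest of the table in every library. Its share of all listed coding reads was 2.96% and 3.25% in the controls and 3.05% and 2.88% in the knockdown libraries, and its share of all listed leader reads was 1.87% and 2.02% against 2.53% and 2.32%.

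Related members were then set against each other within a library, a ratio that no scaling of the libraries can move. Pairs were chosen after the values were seen, so the ratios are given as a description with no test, and they are not corrected for length. For every 100 coding reads of Actb there were 34.0 and 31.4 coding reads of Actg1 in the controls and 32.6 and 30.3 in the knockdown libraries. For every 100 leader reads of Actb there were 40.4 and 44.9 leader reads of Actg1 in the controls and 247 and 182 in the knockdown libraries. The balance of the actins thus lay between 30.3 and 34.0 in all libraries on the coding sequence and turned over on the leader. The actin coding sequences are close copies, and how reads with several matches were assigned is not known. The balance on the coding sequence is therefore uncertain.

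Of the 17 pairs in which both genes passed the coding filter, the knockdown values lay above the controls in 4, below in 6 and overlapped in 7. Flnc had 57.0 and 72.5 coding reads per 100 of Flna in the controls and 184 and 169 in the knockdown libraries, so that the gene with more reads changed from Flna to Flnc. Diap1 had 120 and 106 per 100 of Diap2 against 376 and 436. Myo1d had 27.2 and 23.1 per 100 of Myo1c against 9.80 and 10.1, and Myo1e had 28.3 and 28.4 against 15.5 and 14.9. Myh10 moved with Myh9, at 29.8 and 31.7 per 100 against 28.1 and 28.4. On leaders, Tpm1 had 43.5 and 53.8 reads per 100 of Tpm3 in the controls and 277 and 111 in the knockdown libraries, and Myh10 had 29.8 and 27.0 per 100 of Myh9 against 5.94 and 15.

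**Figure D4:**
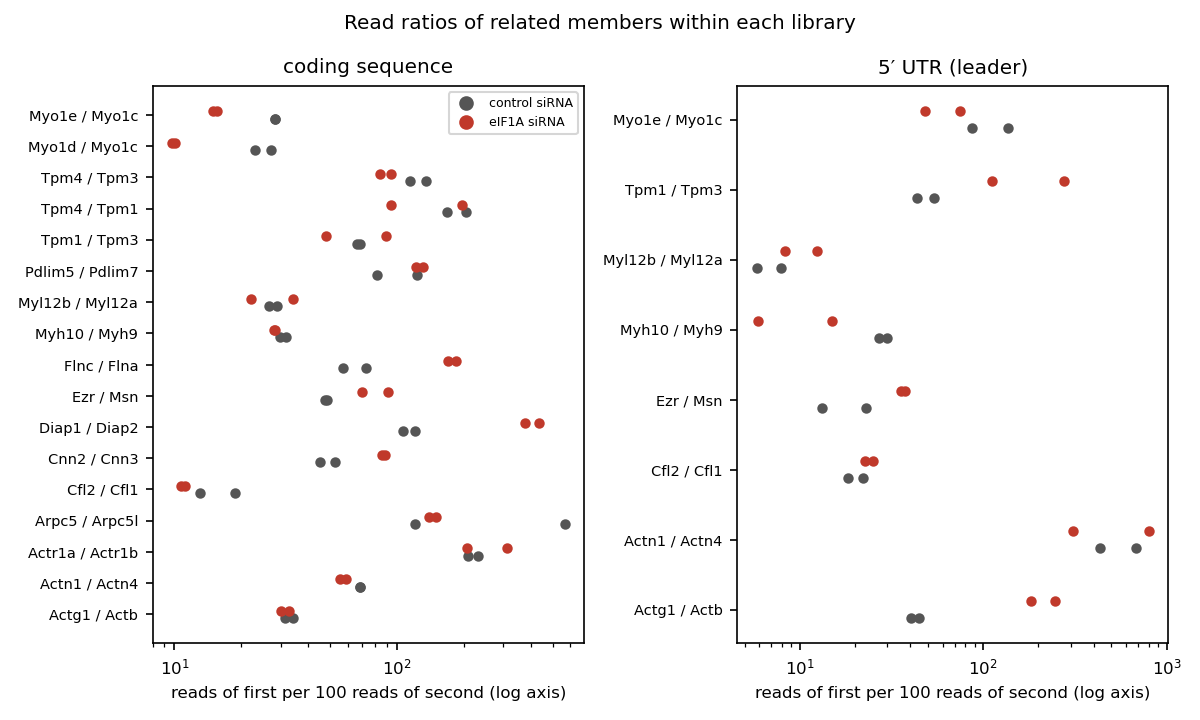
Reads of the first gene per 100 reads of the second within each library, on log axes, for coding sequence (17 pairs) and leader (8 pairs), with grey dots for control siRNA and red dots for eIF1A siRNA libraries. Actg1 over Actb lies at 30.3 to 34.0 in all 4 libraries on the coding sequence, and at 40.4 and 44.9 against 247 and 182 on the leader.

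The shared shift between replicates, as the median of signed log2 differences, was larger between the knockdown libraries than between the controls on these genes. Differences of opposite sign cancel in such a median. In single genes such as Vcl the controls lay further apart, at 384 and 557 coding reads against 259 and 257. Knockdown replicate 1 was above replicate 2 in 39 of 52 genes for coding reads, with a median log2 difference of 0.53, against 70.4% and 0.29 over all genes tested. The largest such difference was 1.72 for Tpm1. On leaders the order was turned, with replicate 1 above replicate 2 in 1 of 28 genes and a median of -0.51, against 10.3% and -0.63 over all genes tested. The controls differed by medians of -0.02 for coding and -0.35 for leader reads in the same genes, against 0.07 and -0.30 over all genes tested. The part of depth in these differences was not tested.

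Other genes of the pathway, from lists that did not use the name pattern, are given by coding reads, and over all genes tested 10.6% rose and 18.7% fell. Of 15 tested crosslinkers and cortical linkers outside the set, 8 fell and 0 rose, with a median log2 change of -1.01. Add1, adducin 1, which caps filaments at the membrane skeleton, fell by 1.89, Lima1, a bundling protein of stress fibres, by 1.64 and Dbn1, drebrin, by 1.58 (limma adjusted p = 0.000287, 0.00131 and 0.00251). Of 17 integrin adhesion proteins, 7 fell and 0 rose, with a median of -0.73. The tensins Tns1 and Tns3, which bind integrin tails and actin, fell by 2.47 and 1.49, and Lpp, a relative of zyxin, by 1.36 (limma adjusted p = 9.09e-05, 0.00269 and 0.00632).

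Of 14 other monomer and filament turnover proteins, 5 fell and 0 rose, with a median of -0.42. The formins Fmnl3 and Inf2 fell by 1.77 and 1.61, and Mical1, an enzyme that oxidises actin, by 2.04 (limma adjusted p = 0.000595, 0.00198 and 0.00129). Of 4 tested genes of SRF cofactors, with a median of -0.72, Mkl2 fell by 1.04 and 3 did not pass. Of 9 tested members of the nucleation-promoting complexes, with a median of -0.36, Brk1, a WAVE subunit, rose by 1.53 and Cttn, cortactin, fell by 0.89 (limma adjusted p = 0.0173 and 0.0435).

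Genes for the folding of actin rose in 7 of 14 cases and fell in 0, with a median of 0.91. The prefoldin subunit Pfdn4 had 5.02 and 5.19 normalized coding reads in the controls and 29.5 and 22.4 in the knockdown libraries, a log2 change of 2.13 (limma adjusted p = 0.00665), and it passed the filter only through the knockdown libraries. The other 6 had control means of at least 10. Cct6a, a subunit of the chaperonin that folds actin and tubulin, rose by 1.24, and Pfdn1 by 1.25 (limma adjusted p = 0.00593 and 0.011).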

How the data were processed

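Ribosome profiling of 4 libraries was analysed, 2 with control siRNA and 2 with eIF1A siRNA. Cutadapt, TopHat2, Bowtie, DESeq2, HTSeq and the mm10 build are named, with neither versions nor order, per the submitters' processing notes. The deposited signal is, per the file headers, a normalized read number per gene for the 5' UTR and the coding sequence. Dividing by what 1 read is worth gave whole reads for 100% of values (tolerance 0.001 reads). No value was under 1 read, and the sources used here do not explain what became of genes at 0. The listed totals, given in the report, are not the full depth.

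Log2 values (pseudocount 1) were tested in R 4.3.3 with limma 3.58.1 (mean-variance trend, all 4 libraries, no block, Benjamini-Hochberg over all genes of the table with a mean of at least 10). A fold on this scale understates changes of genes with few reads. For the leader and the ratio limma shrank every gene's variance fully to the trend. All their p-values and standard errors therefore rest on variance shared between genes. The spread of a gene's own replicates did not enter, as for Actn4 leader reads of 12.2 and 44.7 in the knockdown libraries. As alternatives, edgeR 4.0.16 called 1712 coding, 862 leader and 75 ratio changes over all genes on recovered reads, and DESeq2 1.42.0 called 988, 365 and 67. Other alternatives changed the pseudocount, the filter, the scaling (TMM or quantile), the lowest read, the replicate block and the libraries used. The procedure was also run on simulated reads, drawn without the shared leader shift of these data. That run cannot show how the calls behave under such a shift. Symbols were matched to RefSeq (GRCm38.p6), 52 directly and 2 by an older name.

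The members and lists were chosen with earlier results of these data known. Members past the threshold are named with values, apart from results not reported here, and from each pathway list up to 3 genes with the smallest adjusted p are named.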

Additional observations from a re-analysis of the deposited data

How the results depend on the processing

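No called member changed direction in any alternative except Actb in leader reads, whose log2 change was -0.00444 with TMM factors, -0.00233 with edgeR and -0.0392 with DESeq2. In coding reads, 14 of 52 tested members fell and 0 rose. With a mean of at least 50, 1 of 40 tested was higher. Higher members numbered 4 with TMM factors (17.0% of all genes) and 4 with edgeR (19.5%). They numbered 2 with quantile normalization, 2 with DESeq2 and 2 with the replicate block. Lower members numbered 9 with quantile normalization, 7 with DESeq2 and 1 to 13 with 1 library left out. In leader reads, where 17 rose and 1 fell, higher members numbered 9 with a mean of at least 50, 8 with TMM factors, 8 with quantile normalization, 7 with edgeR, 4 with DESeq2, 22 with the replicate block and 5 to 22 with 1 library left out. Lower members numbered 2 without a filter, 3 with TMM factors, 3 with quantile normalization, 3 with edgeR, 2 with DESeq2 and 0 to 1 with 1 library left out. The ratio, higher in 7 of 28, gave 0 with TMM factors, where 0 of all 1907 genes were higher. It gave 0 with quantile normalization, 2 with edgeR, 1 with DESeq2 and 14 with the replicate block. TMM and quantile scaling set the median change of all leaders near 0 by construction. So did the factors that edgeR and DESeq2 took from the leader reads, with medians of 0.04 and -0.0002. For the other moved counts, those with 1 library left out among them, the cause was not tested. Shares over all genes by direction were not worked out for quantile normalization, DESeq2, the replicate block and the other filters. Counts in those settings are therefore not read as results about these members.

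The replicate number pairs no samples in the labels. Differences between replicates 1 and 2 correlated at 0.26 between groups for coding reads and -0.06 for leader reads across genes. Over single members not called at first, the sign differed in 45 of 523 coding, 23 of 132 leader and 45 of 276 ratio values. Low read numbers limit the values of Arpc5l and Pdlim4 in coding reads and of Zyx, Myl12b and Capzb in leader reads, among others, and knockdown replicate 2, with the fewest reads, limits all members.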
